A study of Mus musculus with 12 samples.

Results

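Activins, inhibins, follistatins and the activin receptors were followed through 10 genes: the subunit genes Inhbb, Inhba and Inha, the follistatin genes Fst, Fstl1 and Fstl3, and the receptor genes Acvr1, Acvr1b, Acvr2a and Acvr2b. The genes were selected by their place in this family, with the PiCs and ESCs signals of these arrays known, above all the large difference in Inhbb. It was also known that the probe sets of Inhbb differ in size of change. Every probe set annotated to exactly 1 of these symbols was taken, which gave 20 of the 45101 probe sets on the array and 10 of 18193 named genes. Inha and Fstl3 had 1 probe set and the other 8 genes had more. One further probe set is annotated to both Orc4 and Acvr2a and was left out. Because the contrast between PiCs and ESCs was known when the genes were chosen, the members' differences are given as descriptions, without p-values, and counts of members past a threshold only stand beside the share over the whole array.

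The study gave L-proline to TBV2, a line of mouse embryonic stem cells from the 129/SvP strain with no engineered change named in the labels. PiCs, proline-induced cells, were grown for 5 days with 500 µM L-proline, and ESCs, the control cells, without it. Both grew sparsely on feeder-free, gelatin-coated plates, in medium that held leukemia inhibitory factor (LIF), the cytokine that supports self-renewal, and lacked non-essential amino acids, per the labels' protocols. RNA was measured on 12 Affymetrix arrays, 6 of PiCs and 6 of ESCs, with 2 numbered biological replicates per group and 3 lettered arrays per number. The letters are not explained in the labels, so the 3 arrays were averaged and n is 2 per group. All samples come from 1 cell line, and nothing in the labels says that the numbered replicates were separate cultures, so the spread between them may be partly technical.

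Activins are dimers of beta subunits: Inhba encodes beta-A and Inhbb beta-B. A beta subunit joined to the alpha subunit, the product of Inha, gives an inhibin, which opposes activin. Activin binds a type II receptor, ACVR2A or ACVR2B, which recruits a type I receptor, chiefly ACVR1B, and the receptor pair phosphorylates SMAD2 and SMAD3. Follistatin and FSTL3 bind activin outside the cell and block it. In the early embryo and in cells of the post-implantation epiblast this pathway, shared with Nodal, maintains pluripotency and directs mesendoderm formation.

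When each gene was represented by its brightest probe set, 4 of the 10 had an adjusted p under 0.05 (limma): Inhbb was lower in PiCs, and Fst, Acvr1 and Acvr2b were higher. Over all genes 4.36% passed, and nothing is read from the members' larger share because the contrast was part of their choice. With every probe set tested by itself, both probe sets of Inhbb passed and the other 18 did not, against 0.0999% of 45037 probe sets. After median centring none of the 45037 probe sets passed by itself, so neither did those of Inhbb. With the median over probe sets in place of the brightest, only Inhbb and Fst of the 10 genes passed, against 354 of all 18193 genes. The median log2 difference (PiCs minus ESCs throughout) was 0.50 over the 10 genes and -0.03 over all genes. The 6 PiCs arrays lay wholly above the 6 ESCs arrays in 7 of the 20 probe sets and wholly below them in 2, while 19.1% of all probe sets were separated in one direction or the other.

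**Figure D1:**
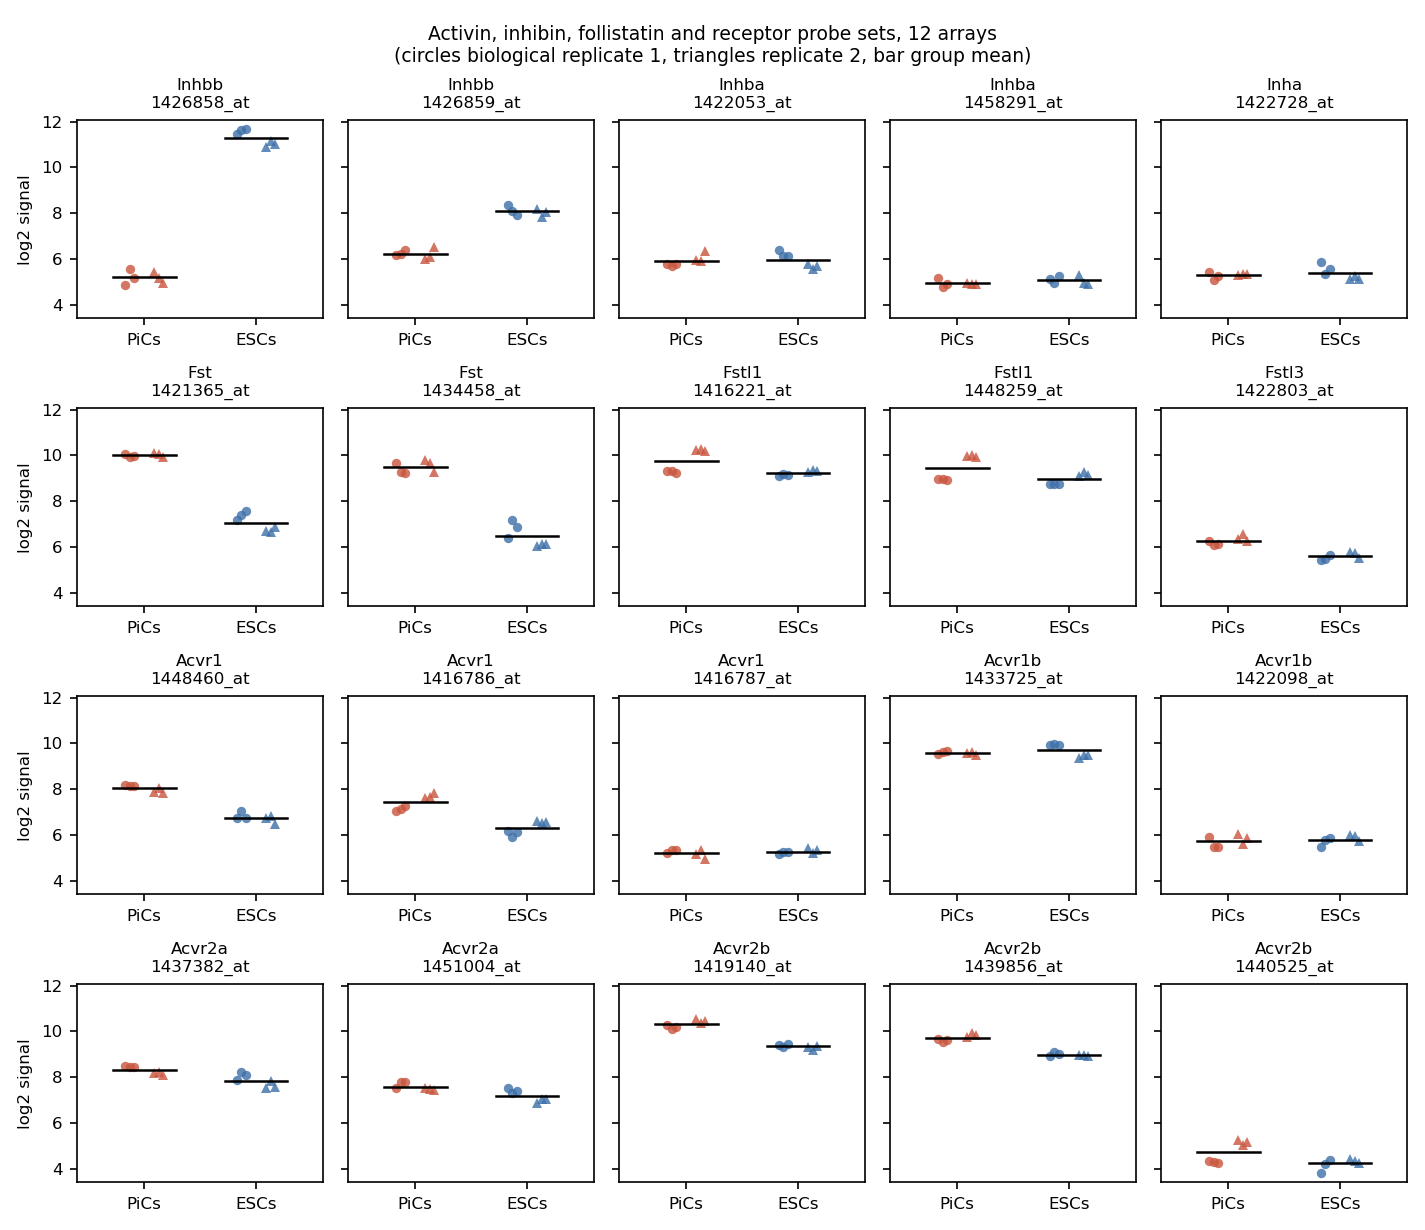
Log2 signal of the 20 probe sets on each of the 12 arrays, PiCs left and ESCs right in every panel, with circles for biological replicate 1, triangles for replicate 2 and a bar at the group mean. Both probe sets of Inhbb sit lower in PiCs, both of Fst sit higher, and the panels of Inhba and Inha show arrays of both groups at the same height.

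The beta subunit genes are shown first with the 250 bases before their annotated starts, because their products form the same kind of dimer, while the signals of Inhbb lay far apart between the groups and those of Inhba overlapped. Sequences are RefSeq's, build GRCm38.p6, read on the strand of the gene. Capitals mark a TATA box (letters TATAAA) or a GC box (letters GGGCGG), on either strand, so that the GC box of the other strand appears as its reverse complement. A SMAD box (letters CAGAC) and a CCAAT box (letters CCAAT) were also searched on both strands. The Inhbb window is chr1:119422249-119422498 on the minus strand and the Inhba window chr13:16011601-16011850 on the plus strand, before a start inside the annotated span of that gene. Windows were found for 9 of the 10 genes.

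Inhbb: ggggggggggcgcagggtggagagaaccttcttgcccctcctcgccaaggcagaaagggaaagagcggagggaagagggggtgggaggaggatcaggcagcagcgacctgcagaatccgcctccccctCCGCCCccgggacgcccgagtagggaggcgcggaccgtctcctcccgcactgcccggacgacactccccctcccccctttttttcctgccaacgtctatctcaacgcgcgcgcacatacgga

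Inhba: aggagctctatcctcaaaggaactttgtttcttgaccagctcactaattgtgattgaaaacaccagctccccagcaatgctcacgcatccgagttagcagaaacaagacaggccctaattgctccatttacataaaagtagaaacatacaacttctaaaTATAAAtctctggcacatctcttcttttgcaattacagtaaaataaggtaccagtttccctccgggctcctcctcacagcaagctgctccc

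The Inhbb window held 1 GC box, 21 CG dinucleotides and none of the other 3 motifs, with 68.0% G and C. The Inhba window held 1 TATA box, 3 CG dinucleotides and none of the other 3, with 43.2% G and C, against a median of 52.4% over the 32851 promoter windows of the table. Counted from the annotated start, the Inhba TATA box lay at -91 to -86 and the Inhbb GC box at -122 to -117. Whether the Inhba match acts as a TATA box was not tested. A TATA box was in 12.4% of all windows, a GC box in 32.7%, a SMAD box in 42.2% and a CCAAT box in 33.8%. These matches describe the letters alone, and binding was not measured.

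Inhbb, the beta-B gene (chr1:119415463-119422248), had the largest decrease of all 18193 genes. Probe set 1426858_at read 5.20 and 5.17 in PiCs replicates 1 and 2, against 11.59 and 11.03 in ESCs replicates 1 and 2, as log2 signals. On single arrays it ran from 4.83 to 5.58 in PiCs and from 10.90 to 11.69 in ESCs, so that the groups lay far apart. Its log2 difference was -6.12 ± 0.22 (moderated SE), and Khdc3, next in size among genes, measured -3.72 ± 0.13. The PiCs mean of 5.18 ± 0.02 (SD, n = 2) lay under 5.36, the 40th percentile of all probe sets, below which a signal is called dim here, and dim signals can be background, so no fold is given and the size is uncertain. With every PiCs array taken at no less than 5.36, the log2 difference was -5.90. In bulk RNA, fewer cells with the transcript and less transcript per cell cannot be told apart either.

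Probe set 1426859_at, the other one of Inhbb, was also lower in PiCs, by far less. It read 6.24 and 6.19 in PiCs replicates and 8.12 and 8.02 in ESCs replicates, and its arrays ran from 5.98 to 6.51 in PiCs and from 7.83 to 8.34 in ESCs. Again no PiCs array reached the lowest ESCs array. The log2 difference was -1.86 ± 0.11, a 3.63-fold lower signal in PiCs. The ESCs means were 8.07 here and 11.31 for 1426858_at, so this probe set had less room to fall before the dim level of 5.36. The part of this in the 2 sizes was not tested. The distance of 4.26 between the differences of the 2 Inhbb probe sets was the widest among the 9010 genes with more than 1 probe set, where the median distance was 0.26 and the 95th percentile 1.05. Adgrl2 came next with 3.19. Leaving out probe sets dim in both groups, Inhbb was still the widest of 6051 genes. That the Inhbb probe sets differ was known when the genes were chosen, so these ranks are descriptions. Which part of the transcript each probe set reads is not given in the files.

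Inhba, the beta-A gene, measured close to 0. Probe set 1422053_at read 5.75 and 6.08 in PiCs replicates and 6.21 and 5.67 in ESCs replicates. Both PiCs values lay between the ESCs values, and the log2 difference was -0.02 ± 0.24. Probe set 1458291_at read 4.94 and 4.91 in PiCs replicates and 5.09 and 5.04 in ESCs replicates, all under the 40th percentile. Its difference of -0.15 ± 0.11 was small, and its arrays overlapped.

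Inha, the alpha subunit gene, gave 5.25 and 5.33 in PiCs replicates and 5.59 and 5.17 in ESCs replicates (1422728_at). Both PiCs values lay between the ESCs values, with a log2 difference of -0.09 ± 0.18. Inha and the Inhba probe sets read at most 6.39 on any array of either group. Close readings at such signals do not show equal transcript levels.

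**Figure D2:**
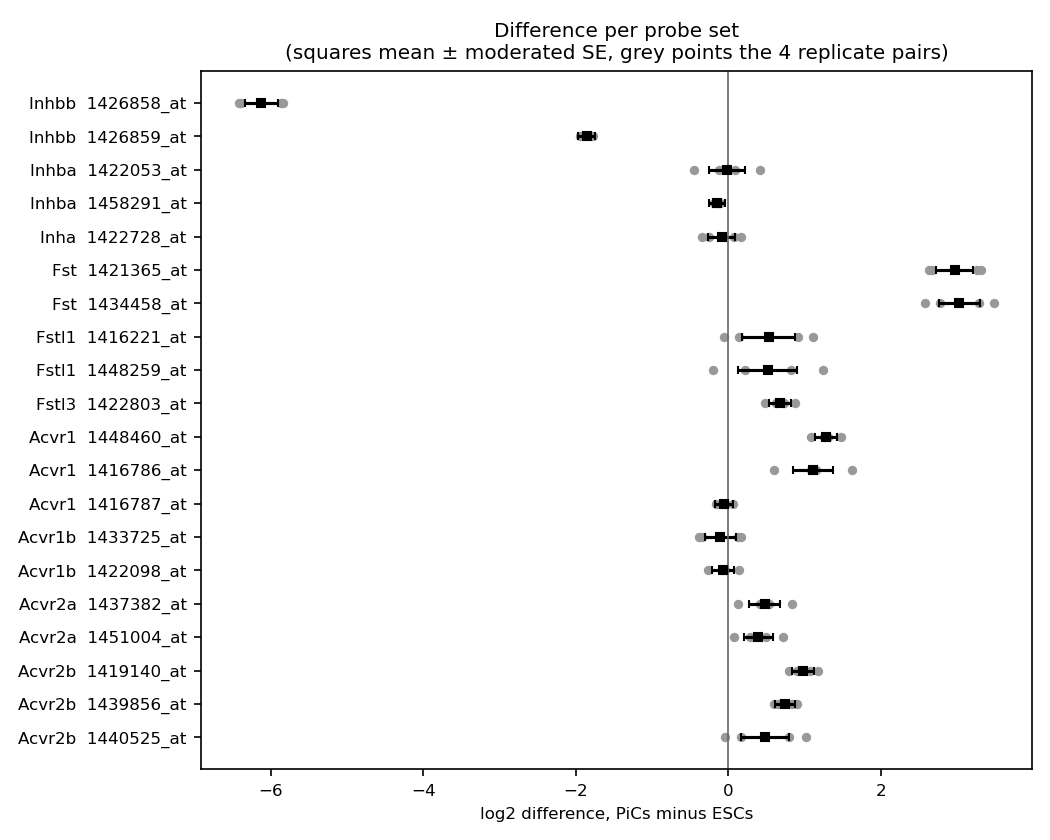
Log2 difference, PiCs minus ESCs, of each of the 20 probe sets (squares, with moderated SE), and the 4 differences between single PiCs and ESCs replicates (grey points). All 4 pairs lie below 0 for both probe sets of Inhbb and above 0 for both of Fst, from -6.41 to -5.83 for the larger Inhbb difference.

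Fst (chr13:114452262-114458989), which encodes follistatin, was higher in PiCs, and here both probe sets gave differences within their SE of each other. Probe set 1421365_at read 9.995 and 10.05 in PiCs replicates, against 7.37 and 6.74 in ESCs replicates. On single arrays it ran from 9.94 to 10.12 in PiCs and from 6.66 to 7.55 in ESCs, without overlap. The log2 difference was 2.96 ± 0.24, a 7.80-fold higher signal. Probe set 1434458_at read 9.38 and 9.58 in PiCs replicates and 6.81 and 6.10 in ESCs replicates, a difference of 3.03 ± 0.27. In these probe sets the PiCs replicates lay 0.05 and 0.20 apart and the ESCs replicates 0.63 and 0.71. Among all genes Fst ranked 35th in increase.

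Fstl3, the other activin-binding follistatin, measured 6.15 and 6.40 in PiCs replicates and 5.53 and 5.68 in ESCs replicates (1422803_at). The lowest PiCs array, at 6.08, lay above the highest ESCs array, at 5.78. Its difference of 0.67 ± 0.14 on the log2 scale was 2.76 times the larger gap between replicates. The ESCs signals lay close to the dim level of 5.36, so the size is uncertain. Fstl1 encodes a secreted glycoprotein with a follistatin domain. It differed by 0.53 ± 0.35 and 0.51 ± 0.39 in its 2 probe sets, and PiCs replicate 2 carried the difference. Probe set 1416221_at read 9.28 and 10.24 in PiCs replicates 1 and 2, against 9.14 and 9.33 in ESCs replicates 1 and 2. Without PiCs replicate 2 the differences of the 2 probe sets were 0.05 and 0.01, and without PiCs replicate 1 they were 1.01 and 1.02.

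Among the type I receptor genes, Acvr1 was higher in PiCs and Acvr1b measured close to 0; the difference between them was not tested. Acvr1 (chr2:58446438-58566828) encodes ALK2, best known as a receptor for bone morphogenetic proteins (BMPs), which activin can also bind. Probe set 1448460_at of Acvr1 read 8.14 and 7.92 in PiCs replicates, against 6.84 and 6.67 in ESCs replicates. Its lowest PiCs array read 7.84 and its highest ESCs array 7.04, and the log2 difference was 1.28 ± 0.14. Probe set 1416786_at gave 1.11 ± 0.27, also without overlap, with replicate 2 above replicate 1 by 0.54 in PiCs and 0.48 in ESCs. The remaining Acvr1 probe set, 1416787_at, was dim in both groups, with means of 5.21 in PiCs and 5.26 in ESCs, and gave -0.05 ± 0.12.

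Acvr1b, which encodes ALK4, the main type I receptor of activin and Nodal, measured 9.62 and 9.58 in PiCs replicates and 9.96 and 9.45 in ESCs replicates (1433725_at). The 2 PiCs values lay between the ESCs values, and the difference of -0.11 ± 0.20 was smaller than the gap of 0.51 between ESCs replicates. The dimmer probe set 1422098_at gave -0.07 ± 0.15.

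The type II receptor genes both had brighter signals in PiCs, and the arrays of the groups overlapped for Acvr2a. Acvr2b (chr9:119401583-119442148) probe set 1419140_at read 10.19 and 10.47 in PiCs replicates and 9.40 and 9.29 in ESCs replicates, a difference of 0.98 ± 0.15. Probe set 1439856_at gave 0.74 ± 0.13, and neither overlapped between groups. Probe set 1440525_at of the same gene was dim, and its 0.48 ± 0.32 came from PiCs replicate 2 at 5.14, with PiCs replicate 1 at 4.29 and ESCs replicates at 4.12 and 4.34.

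Acvr2a probe set 1437382_at read 8.47 and 8.18 in PiCs replicates and 8.06 and 7.64 in ESCs replicates, a log2 difference of 0.48 ± 0.20. Its arrays overlapped, since the lowest PiCs array read 8.10 and the highest ESCs array 8.22. Probe set 1451004_at gave 0.39 ± 0.19. In both probe sets replicate 1 lay above replicate 2 in either group, by 0.30 and 0.22 in PiCs and by 0.42 and 0.43 in ESCs. The difference between Acvr2a and Acvr2b was not tested.

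**Figure D3:**
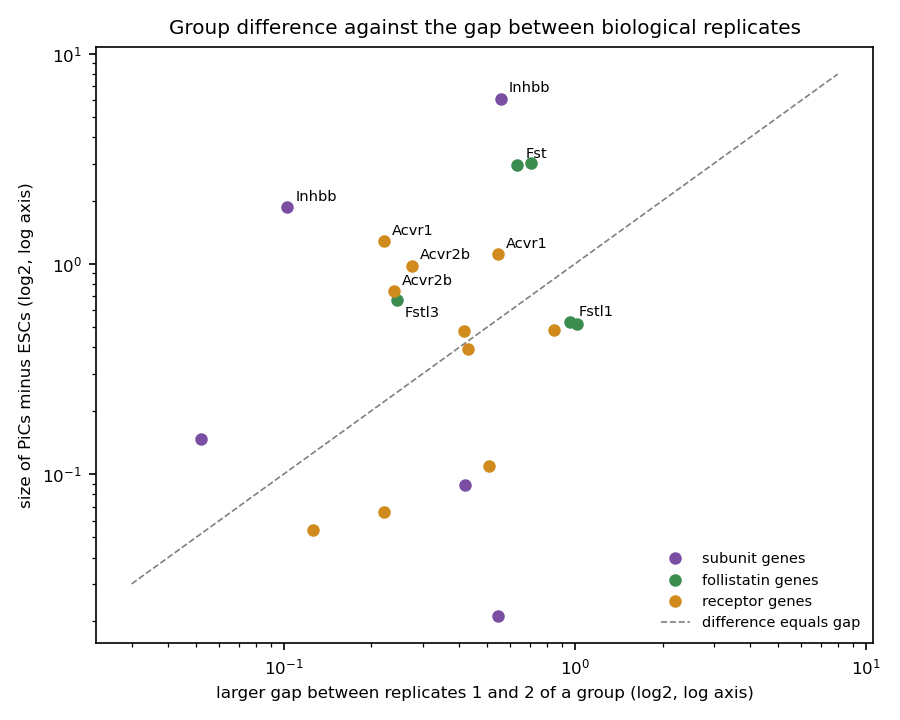
Size of the PiCs minus ESCs difference of each member probe set against the larger gap between biological replicates 1 and 2 of either group, both in log2 units on log axes, with a dashed line where they are equal. The difference exceeds the gap in 11 probe sets, 8 higher and 3 lower in PiCs, and both probe sets of Fstl1 lie below the line.

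Measured against the gap between replicates, 11 of the 20 probe sets had a difference larger than the wider of the 2 gaps, 8 of them higher and 3 lower in PiCs. Over all probe sets the share was 35.7%, and nothing is read from the members' share. The 3 lower ones were both probe sets of Inhbb and the Inhba probe set 1458291_at, which was dim in both groups and measured -0.15 with replicates at most 0.05 apart. The difference was 18.1 times the gap for the smaller of the Inhbb differences, 11.0 times for the larger one, and 4.67 and 4.28 times for Fst. In the other 9 probe sets the replicates of 1 group lay further apart than the groups. When any 1 biological replicate was left out, the log2 differences stayed between -6.40 and -5.85 for the larger Inhbb difference, 2.65 and 3.28 for Fst (1421365_at), 1.17 and 1.39 for Acvr1 (1448460_at) and 0.84 and 1.12 for Acvr2b (1419140_at). No gene passed the threshold in limma without any 1 of PiCs replicate 1, PiCs replicate 2, ESCs replicate 1 or ESCs replicate 2, and between 2766 and 3676 genes then had an unadjusted p under 0.05.

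**Figure D4:**
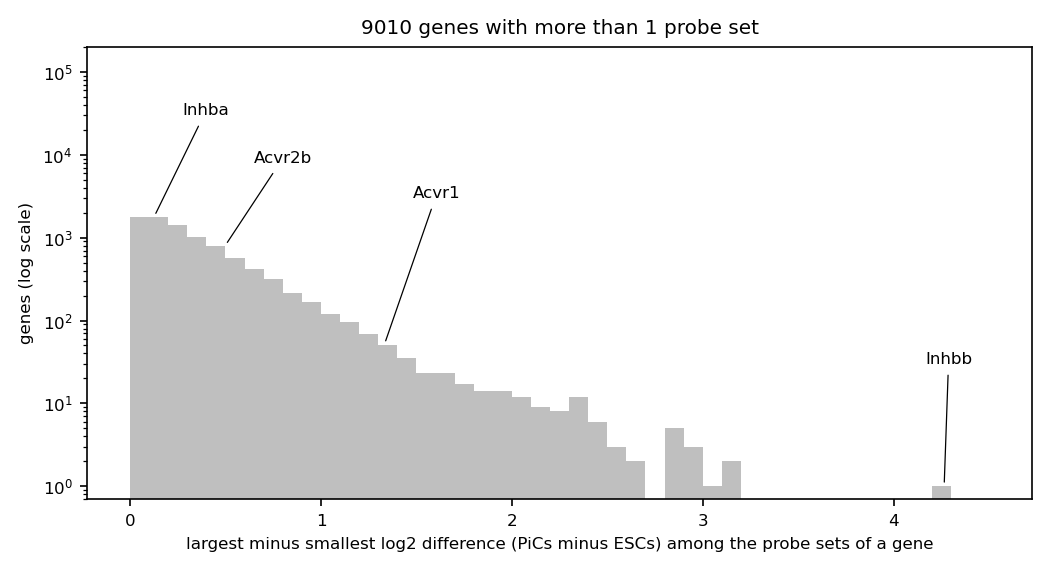
Largest minus smallest log2 difference (PiCs minus ESCs) among the probe sets of each of the 9010 genes with more than 1 probe set, with the number of genes on a log scale. Inhbb lies at 4.26, apart from the other genes, Acvr1 at 1.33 and Acvr2b at 0.50, and without probe sets dim in both groups Acvr1 lies at 0.17 and Acvr2b at 0.24.

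Likeness to the 2 genes with the largest member differences was measured as the root mean square distance between profiles of the 4 biological replicate means, each centred on its own mean. Clone-type symbols, those starting with a digit or with Gm and digits or ending in Rik, were left out. Khdc3 was nearest to Inhbb at 1.22, followed by Tgfbi at 1.57 and Calml4 at 1.67. These distances are wide because the Inhbb difference exceeded that of every other gene that was lower in PiCs. Khdc3 and Tgfbi also had the largest decreases among genes after Inhbb. The 4 values hold the contrast of PiCs and ESCs itself, so genes with a similar difference come out near. Nothing further is read from likeness, for Inhbb or for Fst. Near Fst lay Penk, which encodes the opioid precursor proenkephalin, at 0.26, then Pgap4 at 0.30 and the T-box gene Eomes at 0.33. Penk read 8.61 and 8.73 in PiCs replicates and 6.25 and 6.03 in ESCs replicates.

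Beyond the 10 members, 52 other genes of the pathway were listed by role and 47 were measured. The others were not analysed here. Of the 47, 3 rose in PiCs, 0 fell and 44 did not pass, while 4.36% of all genes passed. An unadjusted p under 0.05 (limma) was found in 20 of the 47, against 22.1% of all genes, a larger share. The median log2 difference of the 47 was 0.31, against -0.03 over all genes. Because the lists were chosen with earlier results of these data known, nothing is read from the larger share.

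The other ligands held 5 measured genes, 0 past the threshold and 2 whose unadjusted limma p was under 0.05, and a median of -0.23. Nodal, the ligand that shares the activin receptors, read 11.00 and 10.79 in PiCs replicates and 10.83 and 10.42 in ESCs replicates, with a log2 difference of 0.27 ± 0.19 (adjusted p = 0.501, limma). The further beta subunit genes Inhbe (-0.69 ± 0.21, adjusted p = 0.158) and Inhbc (-0.35 ± 0.11, adjusted p = 0.165) had the smallest p of this list in limma. Both were dim in PiCs, at 4.47 and 4.37 for Inhbe and 5.09 and 5.06 for Inhbc, and Inhbe averaged 5.10 in ESCs, also dim, so these sizes are uncertain.

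Extracellular and membrane regulators held 10 measured genes, of which Lefty2 rose and 9 did not pass, with a median of 0.51. In 6 of the 10 the unadjusted limma p was under 0.05. Lefty2, a secreted inhibitor of Nodal, read 9.74 and 9.73 in PiCs replicates and 8.18 and 8.67 in ESCs replicates (1.31 ± 0.19, limma adjusted p = 0.0441). It did not pass after quantile normalization or with the median over probe sets. Its paralog Lefty1 measured 1.67 ± 0.32 (adjusted p = 0.0676) and Igsf1 0.71 ± 0.13 (adjusted p = 0.0662) in limma. The ESCs replicates of Igsf1, at 5.52 and 5.76, lay close to the dim level, so its size is uncertain. Tgfbr3, which encodes betaglycan, the coreceptor that binds inhibin, measured 1.53 ± 0.32 (limma adjusted p = 0.0805), with 7.49 and 8.38 in PiCs replicates and 6.28 and 6.53 in ESCs replicates.

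The 6 other receptor genes had 0 past the threshold, 2 whose unadjusted limma p was under 0.05, and a median of 0.30. The BMP receptors Bmpr1a (0.58 ± 0.15, adjusted p = 0.117) and Bmpr2 (0.33 ± 0.11, adjusted p = 0.188) had the smallest p in limma. The 4 proteases that cleave precursors of this family had 0 past the threshold and 2 whose unadjusted limma p was under 0.05, and their median was -0.12. In limma, Pcsk6 measured -0.80 ± 0.15 (adjusted p = 0.0676) and Furin 1.11 ± 0.24 (adjusted p = 0.0830), in opposite directions.

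Inside the cell, 1 of 16 measured genes of the SMAD2 and SMAD3 branch rose and 15 did not pass, with a median of 0.31. In 5 of the 16 the unadjusted limma p was under 0.05. Foxh1, the DNA-binding partner of these SMADs, read 10.30 and 10.07 in PiCs replicates, against 8.37 and 8.21 in ESCs replicates (1.90 ± 0.14, limma adjusted p = 0.0246). In limma, Smad4 measured 0.58 ± 0.11 (adjusted p = 0.0668), Smad2 -0.36 ± 0.19 (adjusted p = 0.369) and Smad3 0.32 ± 0.22 (adjusted p = 0.499).

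Among genes known to respond to activin and Nodal signals, 2 of 13 measured rose, Lefty2 and Eomes, and 11 did not pass, with a median of 0.33. In 5 of the 13 the unadjusted limma p was under 0.05. Eomes read 9.02 and 9.33 in PiCs replicates and 6.68 and 6.66 in ESCs replicates (2.51 ± 0.15, limma adjusted p = 0.0246). Mixl1, a homeobox gene of the primitive streak, measured 2.96 ± 0.51 (limma adjusted p = 0.0559), with PiCs replicates at 7.86 and 9.37. Its ESCs replicates, at 5.62 and 5.68, lay close to the dim level of 5.36, so the size is uncertain. Smad7, which encodes the inhibitory SMAD, measured -0.32 ± 0.16 (limma adjusted p = 0.358). Some of these genes stand in more than 1 list.

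**Figure D5:**
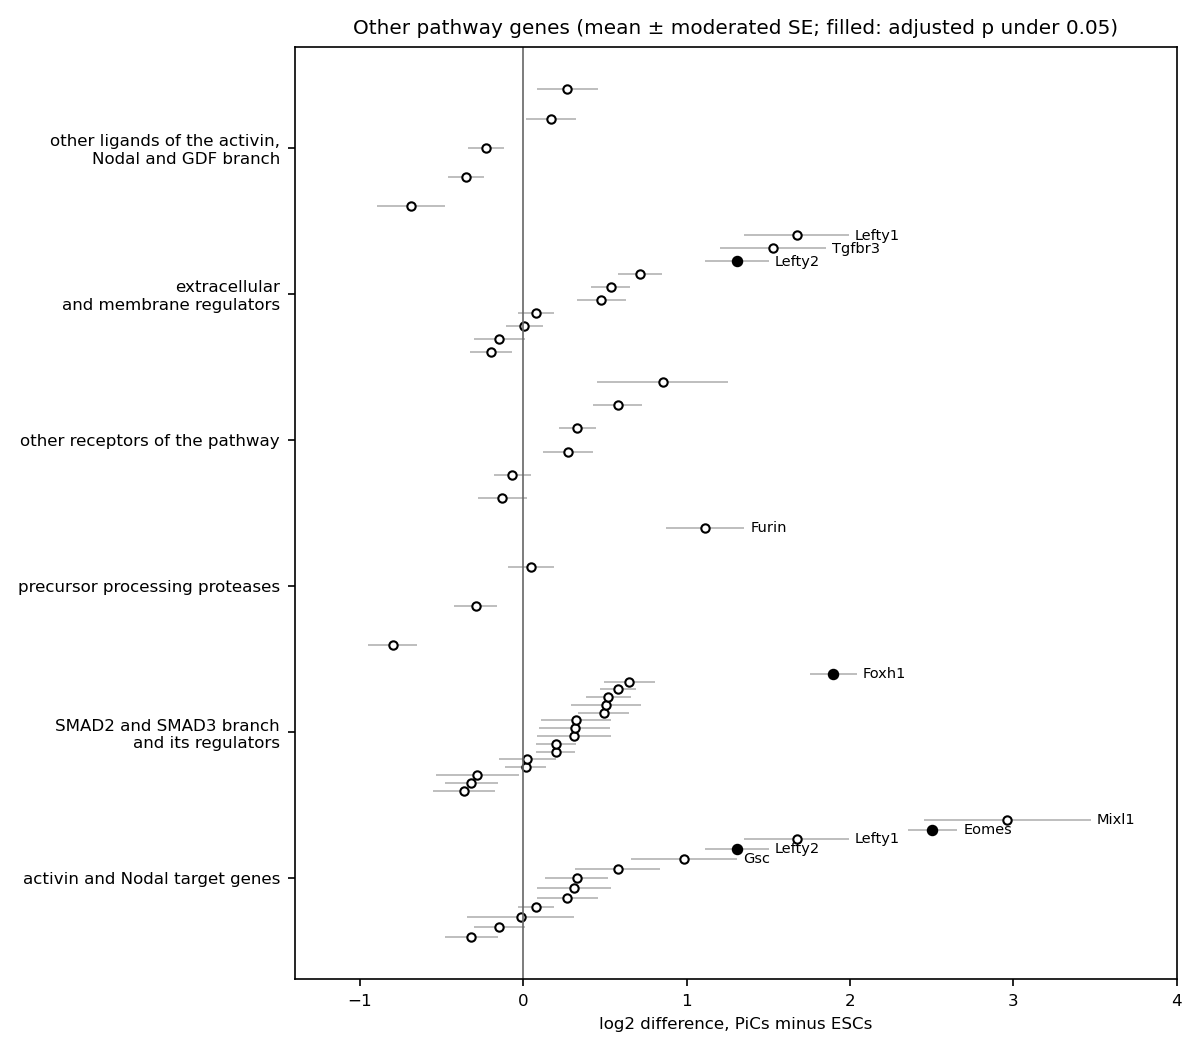
Log2 difference, PiCs minus ESCs, of the measured pathway genes outside the family, by list, with moderated SE and filled points for limma adjusted p under 0.05. Foxh1 (1.90), Lefty2 (1.31) and Eomes (2.51) are filled, and Lefty2 appears in 2 lists.

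All 9 pluripotency markers listed were measured and none was dim, with a list median of 11.999 and 12.05 in PiCs replicates and 12.40 and 12.45 in ESCs replicates. Zfp42 and Fbxo15 fell and 7 did not pass. Among those 7, the PiCs arrays lay wholly above the ESCs arrays for Lin28a (0.67 ± 0.11, limma adjusted p = 0.0530). They lay wholly below for Nanog (-0.54 ± 0.19, limma adjusted p = 0.201) and Dppa4 (-0.41 ± 0.18, adjusted p = 0.289). Sox2 measured -0.55 ± 0.11 (limma adjusted p = 0.0776), though its arrays overlapped between groups. Of the 9 differences, 1 lay above 0, that of Lin28a. The median signals of fibroblast, extraembryonic endoderm, trophoblast and granulosa cell markers lay between 5.46 and 6.25 in PiCs replicates and between 5.23 and 6.24 in ESCs replicates. Of these markers only Gja1 passed the threshold (1.45 ± 0.15, limma adjusted p = 0.0289), which embryonic stem cells also express, and Foxl2 of granulosa cells measured 0.05 ± 0.14 (limma adjusted p = 0.889). Some single markers were separated between the groups' arrays without passing. Of extraembryonic endoderm, Dab2 (1.68 ± 0.28, limma adjusted p = 0.0545), Lamb1 (0.93 ± 0.19, adjusted p = 0.0787) and Col4a1 (1.02 ± 0.23, adjusted p = 0.0887) had brighter signals in PiCs, while Sox17, Gata4 and Gata6 overlapped. Of fibroblasts, Dcn (0.77 ± 0.16, limma adjusted p = 0.0769) and Twist2 (0.53 ± 0.13, adjusted p = 0.111) were brighter in PiCs, and of trophoblast, Ascl2 was dimmer (-0.59 ± 0.17, adjusted p = 0.141). In ESCs replicates Dcn (5.45 and 5.41) and Twist2 (5.62 and 5.43) lay close to the dim level, so their sizes are uncertain. Over all measured markers, differences lay above 0 in 4 of 9 for fibroblasts and in 5 of 9 for trophoblast. For extraembryonic endoderm the count was 8 of 10, and for granulosa cells 2 of 7. In the same arrays the 18S ribosomal RNA probe sets read 9.74 and 8.35 in PiCs replicates and 10.74 and 10.04 in ESCs replicates, lower in PiCs without overlap. The beta-actin signal at the 5' end less that at the 3' end, which falls as RNA degrades, was -0.66 and -0.24 in PiCs replicates and -0.90 and -0.50 in ESCs replicates, which overlapped. Poly-A spikes differed by -0.45 and hybridization spikes by -0.24 between the groups. The hybridization spikes read 11.31 and 11.06 in PiCs replicates and 11.50 and 11.37 in ESCs replicates, also without overlap, and the poly-A spikes overlapped narrowly. The part of these values in the results was not tested.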

How the data were processed

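Expression was measured on Affymetrix arrays of PiCs and ESCs. For 45101 probe sets the authors deposited log2 signals that were already normalized. MAS5 and RMA are named, per the submitters' processing notes, with neither a version nor a role. The values, from 2.10 to 14.8 with array medians from 5.99 to 6.03, have the form of log2 RMA summaries. Detection calls were not used here.

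Probe sets took the platform annotation's symbol where it gave 1 gene (34945), 932 had several, 9160 were unnamed here and 64 were array controls. Symbols were checked by gene ID against RefSeq (GRCm38.p6), which changed 0. A gene was its probe set with the highest mean.

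The mean of the 3 arrays of each biological replicate entered limma 3.58.1 in R 4.3.3 (lmFit, eBayes, two-sided, Benjamini-Hochberg over all 18193 genes or 45037 probe sets, adjusted p under 0.05), with 2 residual and 2.60 prior degrees of freedom for genes. Member values and SEs come from the probe set fit, pathway genes from the gene fit. An exact permutation test of 2 against 2 cannot go under 0.333. With n = 2 per group, the number of biological replicates limits precision, and dim signals limit it further; there is no count depth.

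Alternatives were quantile normalization, median centring, a filter on dim signals, the median over probe sets, an intensity trend, 12 arrays in a random block, a replicate block, and leaving out replicates or arrays. The members and lists were chosen with earlier results of these data known. Named pathway genes were those past the threshold and the 2 smallest p per list. Nodal, Lefty1, Tgfbr3, Smad2, Smad3, Smad7, Mixl1, Lin28a, Nanog, Dppa4, Sox2 and the markers of other cells were added after their values were seen. Plots used matplotlib 3.10.9.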

Additional observations from a re-analysis of the deposited data

How the results depend on the processing

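The count of 794 genes past the threshold was 354 by the median over probe sets, 2039 with the replicate number as a block (replicate block) and 3987 with 12 arrays in a random block. It was 748 with quantile normalization, 775 with median centring, 910 without dim features and 937 with an intensity trend. The 45 probe sets became 0 in limma with median centring (7959 at an unadjusted p under 0.05), 546 without dim features, 670 with an intensity trend, 3733 with the replicate block and 7618 in the random block. The 3 pathway genes became 5 without dim features and with the trend, 8 with the replicate block and 19 in the random block. Leaving out any 1 biological replicate gave 0 to 0 for all 3 counts in limma, with 2766 to 3676 genes, 5198 to 7900 probe sets and 14 to 20 pathway genes at an unadjusted p under 0.05. The 4 member genes were 2, Inhbb and Fst, by the median over probe sets, 5 with the replicate block and in the random block, where Fstl3 was added, and 4 with quantile normalization, median centring, the dim filter and the trend. Among pathway genes, 2 (Foxh1 and Eomes) passed with quantile normalization and with the median over probe sets. The numbers do not pair the samples by the labels; across genes, PiCs replicate 2 minus 1 correlated with ESCs replicate 2 minus 1 at r = 0.338. The sign of the difference was the same in 19 of 19 settings for both probe sets of Inhbb and Fst. Their arrays did not overlap between groups, so leaving out arrays or replicates could not change the sign. The replicate block leaves the difference itself unchanged, and nothing is read from this count. Inhba (1422053_at) kept its sign in 13 of 19, ranging from -0.29 to 0.25. Low signals limit what can be said of Inha and Inhba, of Inhbb in PiCs and of Fstl3 in ESCs. Among other genes the same holds for Inhbe and Inhbc, and for Mixl1, Igsf1, Dcn and Twist2 in ESCs.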
